A study of Mus musculus and Homo sapiens with 16 samples.

Results

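The 85 nuclear genes examined here carry the symbols of oxidative phosphorylation subunits, out of 39179 annotated mouse genes. They were chosen by name alone: symbols that begin with Nduf and a subunit letter and number, the succinate dehydrogenase genes Sdha to Sdhd, and symbols that begin with Uqcr, Cox4 to Cox8 or Atp5. One name, Atp5l-ps1, was left out as a pseudogene. Of the 85 genes, 37 belong by symbol to complex I, 4 to complex II, 8 to complex III, 18 to complex IV and 18 to complex V. The names do not match function in every case. Ndufa4 and Ndufa4l2 are grouped with complex I here although NDUFA4 is known as a complex IV subunit, Cox7a2l encodes a supercomplex factor, Atp5s and Atp5sl encode assembly-related proteins, and subunit genes with other names (Ndufab1, Cyc1) are outside the rule.

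Complexes I and II pass electrons from NADH and succinate to ubiquinone, complex III passes them on to cytochrome c, and complex IV passes them to oxygen. Complexes I, III and IV pump protons across the inner mitochondrial membrane, and complex V, the ATP synthase, uses the return flow to make ATP. Most subunits are encoded in the nucleus and the rest in mitochondrial DNA, so both genomes supply each mixed complex. Promoters of the nuclear genes are known for sites of NRF1, ETS factors (GABPA) and YY1. Epidermal keratinocytes respire and also run a high rate of glycolysis, and several complex IV subunits have isoforms that are restricted to muscle, lung or testis.

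The study asked what the Kruppel-like transcription factor KLF5 does in mouse skin, with RNA-seq, ChIP-seq and ATAC-seq. The first RNA set, called E17.5 here, came from E17.5 embryos of the C57BL/6 strain: skin epithelial cells sorted as DAPI-negative, CD45-negative and integrin A6-positive, 3 libraries from Klf5+/- (Het) and 3 from Klf5-/- (KO) embryos. The second, labelled HFD, came from peeled and ground epidermis that was not sorted, with 2 Het and 2 KO libraries made with a directional poly(A) kit, where the E17.5 labels name poly(A) libraries made by a service provider; the labels do not expand HFD or give an age or diet. The Het controls of both sets thus carry 1 mutant allele. KLF5 and H3K27ac (a mark of active promoters and enhancers) ChIP-seq and ATAC-seq (open chromatin) peaks came from 1 sample each of E17.5 epithelium with a wild type genotype label, although the title of the ATAC sample has the word Het. The labels do not say how the allele was made or in which cells, and do not state that each library is a different animal; the p-values then reflect only how far these libraries spread, which may be technical.

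Total counts per library ran from 34486898 to 46445546 at E17.5 and from 31819010 to 44336888 in HFD, and the 85 genes held 1.10 to 1.35% of them. Klf5 itself was not lower in the libraries labelled KO. It had 181, 199 and 163 CPM (counts scaled to one common library total, with TMM factors) in E17.5 Het and 197, 177 and 174 in E17.5 KO, and 62.8 and 42.8 CPM in HFD Het against 101 and 120 in HFD KO. These whole-gene counts do not show which part of Klf5 was altered, so KO below means a library with that label. The sorted cells held keratinocyte markers (7 basal genes summed to 22443 to 29404 CPM) and hardly any of muscle or vessels. Summed endothelial markers (6 genes) were 0.631 to 2.92 CPM and summed skeletal muscle markers (17 genes) 8.15 to 10.7 CPM over all 6 E17.5 libraries. Other cell types left more: fibroblast markers (11 genes) summed to 1659 to 2040 CPM in Het and 1858 to 2078 in KO, with 9 of 10 tested above 0 in KO, and erythroid markers (7 genes) to 15.8 to 1123 in Het and 267 to 2735 in KO. In HFD the groups differed in such markers. Summed fibroblast markers were 21079 to 25153 CPM in Het and 1935 to 6820 in KO, endothelial markers 306 to 348 and 12.1 to 59.3, and suprabasal keratinocyte markers (6 genes) 20008 to 21284 and 43656 to 47860. In the E17.5 set the suprabasal markers went the other way, from 56773 to 72050 CPM in Het to 30353 to 48240 in KO. The part of these differences in the results that follow was not tested. In bulk samples, fewer cells of a type and less RNA per cell cannot be told apart.

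The promoters of 6 genes are printed first, the 250 bases before the RefSeq start on build GRCm38.p6, written along the gene's strand. Sdhd (chr9:50603850-50604099, minus strand), Ndufs6 (chr13:73328483-73328732, minus), Uqcr11 (chr10:80406822-80407071, minus) and Atp5g1 (chr11:96075632-96075881, minus) belong to genes whose KO-to-Het difference was not the same in the 2 sets. Ndufv1 (chr19:4012756-4013005, minus) and Ndufb5 (chr3:32736813-32737062, plus) lie under KLF5 peaks that are among the 4 of lowest q at these genes. Capitals mark matches on either strand to the palindrome-like consensus of NRF1 (no mismatch allowed), CCGGAAG (ETS), CCAAT, and CCNCNCCC, a KLF-type CACCC letter pattern. The start in the deposited files was 0 to 73 bases upstream of the RefSeq start for these genes.
Sdhd: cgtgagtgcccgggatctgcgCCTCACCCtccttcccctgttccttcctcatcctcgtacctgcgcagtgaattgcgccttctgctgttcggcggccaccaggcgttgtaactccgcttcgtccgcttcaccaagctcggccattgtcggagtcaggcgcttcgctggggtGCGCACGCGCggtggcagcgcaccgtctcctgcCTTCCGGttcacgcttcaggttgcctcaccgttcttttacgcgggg
Ndufs6: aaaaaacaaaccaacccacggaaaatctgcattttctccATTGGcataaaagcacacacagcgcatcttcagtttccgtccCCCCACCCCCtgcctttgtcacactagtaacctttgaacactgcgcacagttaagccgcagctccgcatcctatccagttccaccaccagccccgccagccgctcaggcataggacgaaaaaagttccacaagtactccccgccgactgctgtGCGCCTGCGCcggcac
Uqcr11: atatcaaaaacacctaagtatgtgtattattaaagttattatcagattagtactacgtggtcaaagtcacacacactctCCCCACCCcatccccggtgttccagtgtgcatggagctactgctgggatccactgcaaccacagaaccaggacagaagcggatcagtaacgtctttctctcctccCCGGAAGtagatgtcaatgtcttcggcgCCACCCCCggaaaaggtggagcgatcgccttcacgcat
Atp5g1: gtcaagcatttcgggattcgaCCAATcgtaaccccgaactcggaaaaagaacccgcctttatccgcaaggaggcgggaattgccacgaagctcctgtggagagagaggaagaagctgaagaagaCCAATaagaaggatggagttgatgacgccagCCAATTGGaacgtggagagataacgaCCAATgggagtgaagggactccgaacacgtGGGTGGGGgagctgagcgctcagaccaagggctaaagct
Ndufv1: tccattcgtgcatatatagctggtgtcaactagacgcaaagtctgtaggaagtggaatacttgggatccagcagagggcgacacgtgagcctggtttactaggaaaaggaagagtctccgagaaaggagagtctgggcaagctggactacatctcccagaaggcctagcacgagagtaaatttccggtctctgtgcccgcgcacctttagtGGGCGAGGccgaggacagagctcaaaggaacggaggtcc
Ndufb5: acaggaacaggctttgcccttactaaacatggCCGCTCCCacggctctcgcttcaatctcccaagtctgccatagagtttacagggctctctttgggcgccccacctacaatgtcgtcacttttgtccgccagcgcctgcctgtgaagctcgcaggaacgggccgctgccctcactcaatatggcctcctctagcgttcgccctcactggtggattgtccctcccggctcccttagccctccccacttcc
The Sdhd run held an NRF1 match whose first base was at -79 from the start, followed by an ETS match at -46. Ndufs6 had an NRF1 match at -16, with a YY1 match (AAGATGGC) at 33 bases past the start, outside the printed run. Uqcr11 had an ETS match at -66 between 2 KLF-type matches. In Atp5g1 there were 5 CCAAT matches, of which the pair at -95 and -92 overlapped on opposite strands.

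A promoter of 300 bases (250 before to 50 after the start) was matched for 69 of the 85 genes; Ndufa4l2, Uqcrb, Uqcrq, Cox4i1 and 12 others had no match. NRF1 letters were in 16 of the 69 (23.2%) against 10.0% of 11108 promoters of genes tested at E17.5, and 7 of these 16 belonged to complex I and 5 to complex V. The YY1 letters AAGATGGC were in 10 (14.5%, against 4.50%), 7 of complex I and 3 of complex V. ETS letters were in 15 (21.7%, against 17.6%) and CCAAT in 31 (44.9%, against 38.3%). The GC box GGGCGG was in 28 (40.6%) against 63.8% of all, and CCNCNCCC in 40 (58.0%) against 68.7%, and the 2 patterns can overlap. TATAAA was in 7 (10.1%, against 7.40%). These are matches of letters on both strands, not sites of binding.

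At E17.5 most of the nuclear subunit genes had values slightly below 0 with TMM scaling, and none passed the test. After the filter on low counts 81 of the 85 were tested; Cox4i2, Cox7b2, Cox8b and Cox8c were not. edgeR's quasi-likelihood test with Benjamini-Hochberg adjustment at 0.05 called 0 of 81, where it called 0.0861% of all genes tested (0.0331% higher and 0.0530% lower). At an unadjusted p under 0.05 there were 0 higher and 3 lower, beside 3.78% and 6.24% of all genes. DESeq2 called 1 of 83 (Ndufa4l2, lower), where it called 1.93% of all genes. Values below 0 were found for 67 genes and above 0 for 14, with a median log2 fold change of -0.07 and quartiles at -0.12 and -0.02, beside a median of 0.01 over all 15092 genes tested. With library totals in place of TMM the members' median was -0.0046 and that of all genes 0.08, and over libraries left out in turn the members' median ran from -0.12 (without Het replicate 1) to -0.025 (without KO replicate 2). The median standard error of a member was 0.10 on the log2 scale. The median member stood at -0.10, 0.04 and 0.06 (log2, against the mean of the Het libraries) in the 3 Het libraries and at -0.02, -0.16 and -0.04 in the 3 KO libraries. Those ranges overlapped, and Het replicate 1 lay below KO replicates 1 and 3.

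By complex, the E17.5 medians were -0.07 for complex I (31 of 37 genes below 0), 0.02 for complex II (2 of 4), -0.03 for complex III (6 of 8), -0.08 for complex IV (12 of 14 tested) and -0.08 for complex V (16 of 18). Summed over its 37 genes, complex I had 2782, 3182 and 3143 CPM in Het and 2899, 2601 and 2949 in KO. Complex V had 4811, 5217 and 5165 CPM in Het and 4990, 4594 and 4856 in KO. Both sums overlapped between the genotypes.

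Ndufb4, an accessory subunit of the complex I membrane arm, had 30.0, 33.3 and 37.3 CPM in E17.5 Het and 26.4, 26.0 and 28.3 in KO. The groups did not overlap, with a log2 fold change of -0.32 (SE 0.11, edgeR adjusted p = 0.295). Uqcr11, a small subunit of complex III, had 104, 113 and 105 CPM in Het and 102, 91.0 and 79.0 in KO, a log2 fold change of -0.25 (SE 0.10, edgeR adjusted p = 0.415). Neither gene passed the test. KO libraries lay wholly below Het for 7 of the 81 genes (all genes: 8.18%) and wholly above for 0 (all genes: 6.63%). The 7 were Ndufa13, Ndufa4l2, Ndufb4, Uqcr11, Cox8a, Atp5d and Atp5g1. In complex II, Sdhd and Sdha were at 0.10 and 0.06 on the log2 scale. In complex V, Atp5s was at -0.32 (8.94 to 10.4 CPM in Het, 6.36 to 9.82 in KO), and Atp5l2, a low-count gene with an ATP synthase g subunit name, at 0.26 from 38 and 42 counts in all.

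In HFD most members had values above 0 with TMM scaling, and 1 gene passed the test. Of 83 genes tested (Cox7b2 and Cox8c were not), edgeR called 1 higher, Ndufa4l2, and 0 lower, where it called 5.50% of all genes tested (1.48% higher and 4.02% lower). Values above 0 were found for 57 genes and below 0 for 26. The median log2 fold change was 0.07, beside -0.01 over all 15848 genes, and the median standard error was 0.18. With library totals in place of TMM the members' median turned to -0.15 and that of all genes to -0.23, so the sign of the HFD median depends on the scaling, while the members' median lay 0.08 above that of all genes under both. The median member stood at 0.04 and -0.04 in the Het libraries and at 0.19 and -0.002 in the KO libraries, so 1 KO library lay within the Het range. Without KO replicate 2 the median was 0.22, and without KO replicate 1 it was 0.02.

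Complex medians in HFD were 0.11 for complex I (25 of 37 above 0), -0.21 for complex II (1 of 4 above 0), 0.12 for complex III (7 of 8), 0.07 for complex IV (10 of 16) and 0.06 for complex V (14 of 18). KO lay wholly above Het for 26 of 83 genes (all genes: 27.4%) and wholly below for 7 (all genes: 32.7%). The 7 below were Ndufb2, Ndufc2, Ndufs8, Sdhb, Sdhd, Cox4i2 and Atp5l2. Ndufs5, an accessory subunit of complex I, had 44.0 and 26.9 CPM in HFD Het and 64.5 and 51.5 in KO, at 0.71 (edgeR adjusted p = 0.166). Atp5k, which encodes subunit e of complex V, had 95.9 and 94.1 CPM in Het and 140 and 120 in KO, at 0.45 (edgeR adjusted p = 0.150). The low-count Atp5l2 had 0.50 and 0.73 CPM in Het and 0.14 and 0.17 in KO, at -1.97 (edgeR adjusted p = 0.152). These 3 did not pass the test although their groups did not overlap. Between the sets, with TMM scaling, 51 of the 81 genes tested in both were below 0 at E17.5 and above 0 in HFD. This count has none over all genes beside it. It depends on the scaling, as the members' medians under library totals were -0.0046 at E17.5 and -0.15 in HFD. The plot of fold changes by complex shows the narrow E17.5 spread and the wider one in HFD.

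**Figure D1:**
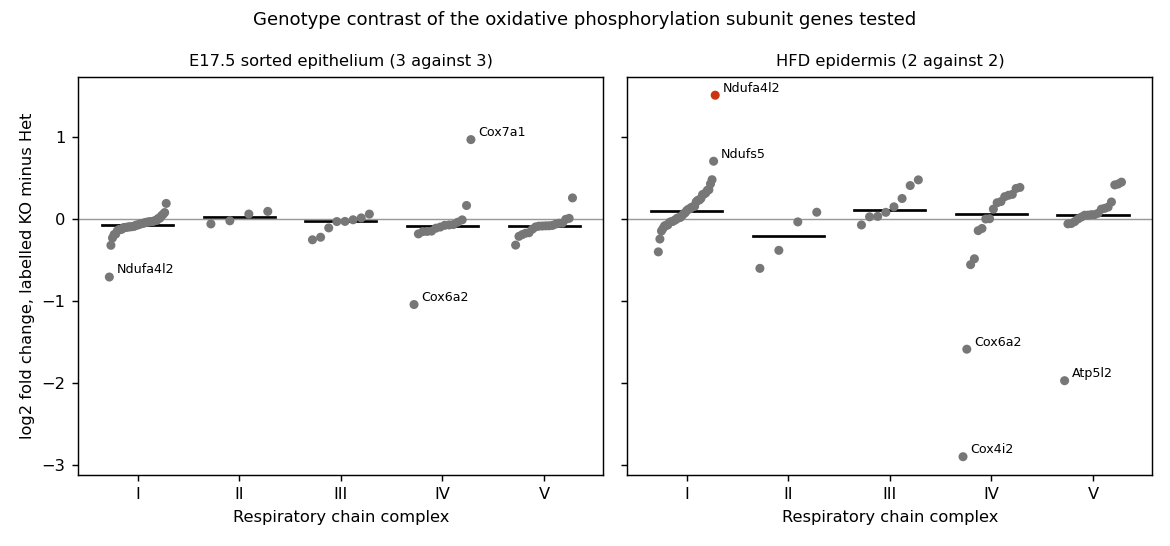
Log2 fold change (labelled KO minus Het) of each subunit gene tested, by complex, in E17.5 sorted epithelium (left, 81 genes) and HFD epidermis (right, 83 genes). Points are genes, black lines are complex medians, red marks an edgeR adjusted p under 0.05, and only Ndufa4l2 in HFD is red; genes beyond 0.6 on the log2 scale are named.

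Ndufa4l2 was the only member called in a set by the main test, and its values lay on opposite sides of 0 in the 2 sets. Its product is a paralogue of NDUFA4 that is known as a hypoxia-induced protein which lowers complex I activity. The gene (ENSMUSG00000040280, chr10:127514939-127517152 on the mm10 build, plus strand) had 235, 315 and 271 CPM in E17.5 Het and 141, 130 and 233 in KO. All 3 KO libraries lay below the lowest Het library, KO replicate 3 only just. The log2 fold change was -0.71 (SE 0.23, 0.613-fold, edgeR adjusted p = 0.306), which did not pass. Without KO replicate 3 it did, at -1.02 with an edgeR adjusted p of 0.00141, in a fit that called 3.31% of all genes.

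In HFD, Ndufa4l2 had 53.9 and 45.2 CPM in Het and 136 and 148 in KO. It rose by 1.52 on the log2 scale (SE 0.18, 2.86-fold, edgeR adjusted p = 0.0337). That call was lost without Het replicate 1 or Het replicate 2, fits that leave 1 Het library. The log2 fold change there was 1.65 and 1.39. The difference of the 2 effects, HFD minus E17.5, was 2.23 (SE 0.33, edgeR adjusted p = 0.00362). It passed without each of the 10 libraries in turn, with adjusted p from 0.000707 to 0.0201, and under library totals (1.94). The 2 sets differ in sorting and in the library preparation the labels describe, and may differ in stage and diet, which the HFD labels do not give; these cannot be told apart in this difference.

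Per kilobase of exon, Ndufa4l2 had the highest level of the 37 complex I genes in E17.5 Het, 286 CPM per kilobase, before Ndufa4 at 212. In E17.5 KO the order was turned, with 225 for Ndufa4 and 176 for Ndufa4l2. In HFD Het, Ndufa4l2 ranked 21 of 37 with 51.9 CPM per kilobase and Ndufa4 led with 663, and in HFD KO Ndufa4l2 ranked 7 (148) and Ndufa4 again led (851). Ndufa4 itself had 91.7, 103 and 116 CPM in E17.5 Het, 119, 100 and 110 in E17.5 KO, 381 and 266 in HFD Het and 432 and 399 in HFD KO. Its log2 fold changes of 0.08 (SE 0.10) and 0.36 (SE 0.23) did not pass in either set (edgeR adjusted p = 0.892 and 0.359).

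Beyond Ndufa4l2, 6 members were called for a difference in genotype effect between the sets. The fit over all 10 libraries shares its spread per gene between the sets. With each set fitted alone, the median standard error of a member was 0.10 at E17.5 and 0.18 in HFD. The lowest of any member was 0.14 for the difference and 0.15 in HFD alone. The standard error of the difference may thus be too small for some genes, which was not tested. The difference of effects, fitted over all 10 libraries, was called for 7 of 83 genes, 6 higher and 1 lower, where 14.7% of all 17260 genes tested were called (7.07% higher, 7.61% lower). The members' share was 8.43%, and with DESeq2 the shares were 14.3% of members and 14.1% of all genes. The members' median difference was 0.18 (65 of 83 above 0) beside -0.02 over all genes. Under library totals all genes shifted to -0.31 and the members to -0.12, and 1 higher and 3 lower calls were made (Ndufa4l2; Ndufc2, Ndufs8 and Sdhd).

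Sdhd, which encodes a membrane anchor subunit of succinate dehydrogenase and has the highest level per kilobase of the 4 complex II genes in both Het groups, was the one gene of the 7 with a lower KO effect in HFD. It had 87.6, 87.8 and 92.8 CPM in E17.5 Het and 94.5, 88.5 and 104 in KO. In HFD it had 90.0 and 97.2 CPM in Het and 72.0 and 51.6 in KO, and the HFD groups did not overlap. The difference of effects was -0.69 (SE 0.20, edgeR adjusted p = 0.0402), and the HFD change alone was -0.60 (edgeR adjusted p = 0.133). Sdhb, the iron-sulfur subunit, had 134 and 117 CPM in HFD Het and 117 and 76.1 in KO, at -0.38 (edgeR adjusted p = 0.359). Sdha and Sdhc were at 0.09 and -0.03 in HFD, so the 4 genes of the complex did not have one direction. The start of Sdhd is shared with Timm8b within 1 kb, and whether reads were counted by strand is not stated in the labels or notes.

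Uqcr11 and Uqcrb, both small subunits of complex III, had positive differences. Uqcr11 went from 95.3 and 95.2 CPM in HFD Het to 138 and 128 in KO, with its lower E17.5 values given above, a difference of 0.74 (SE 0.17, edgeR adjusted p = 0.0165). Uqcrb had 95.4, 104 and 124 CPM in E17.5 Het, 98.5, 84.2 and 95.9 in E17.5 KO, 153 and 136 in HFD Het and 193 and 192 in HFD KO. Its groups overlapped at E17.5 and not in HFD, with a difference of 0.64 (SE 0.19, edgeR adjusted p = 0.0444).

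Ndufs6, an accessory subunit of the peripheral arm of complex I, had 76.2, 89.0 and 75.6 CPM in E17.5 Het and 80.2, 66.7 and 64.6 in KO, then 82.2 and 76.3 in HFD Het and 107 and 114 in HFD KO. The E17.5 groups overlapped and the HFD groups did not. The difference was 0.68 (SE 0.18, edgeR adjusted p = 0.0305). In complex V, Atp5d, the delta subunit of the central stalk, had 215, 216 and 211 CPM in E17.5 Het and 192, 181 and 200 in KO, then 186 and 175 in HFD Het and 237 and 250 in HFD KO. Its groups did not overlap in either set, and the difference was 0.61 (SE 0.14, edgeR adjusted p = 0.0192). Atp5g1, one of 3 genes for the membrane ring subunit c, had 159, 181 and 172 CPM in E17.5 Het and 153, 141 and 155 in KO, then 106 and 113 in HFD Het and 138 and 155 in HFD KO, a difference of 0.62 (SE 0.15, edgeR adjusted p = 0.0218). Atp5g2 and Atp5g3, the other subunit c genes, were at -0.05 and 0.07 in the same difference. With each set fitted alone and all its libraries, edgeR called none of these 6 in E17.5 or HFD. In the fit over all 10 libraries, edgeR called 5 of them in HFD (Atp5d, Atp5g1, Ndufs6 and Uqcr11 higher, Sdhd lower). That fit called 12.0% of the members and 21.3% of all genes in HFD. Over HFD libraries left out in turn, the HFD log2 fold change ran from 0.39 to 0.49 for Atp5d and from 0.37 to 0.53 for Atp5g1. It ran from 0.43 to 0.55 for Ndufs6, 0.45 to 0.57 for Uqcr11, 0.33 to 0.50 for Uqcrb and -0.83 to -0.34 for Sdhd. The main calls of these 6 were in the difference of effects. Their calls passed without 9 of 10 libraries in turn for Uqcr11, 5 for Atp5d, 3 each for Atp5g1 and Ndufs6, 2 for Uqcrb and 1 for Sdhd, with highest adjusted p from 0.0608 to 0.161. Under library totals the edgeR adjusted p was 0.0074 for Sdhd and 0.0966 to 0.205 for the other 5.

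**Figure D2:**
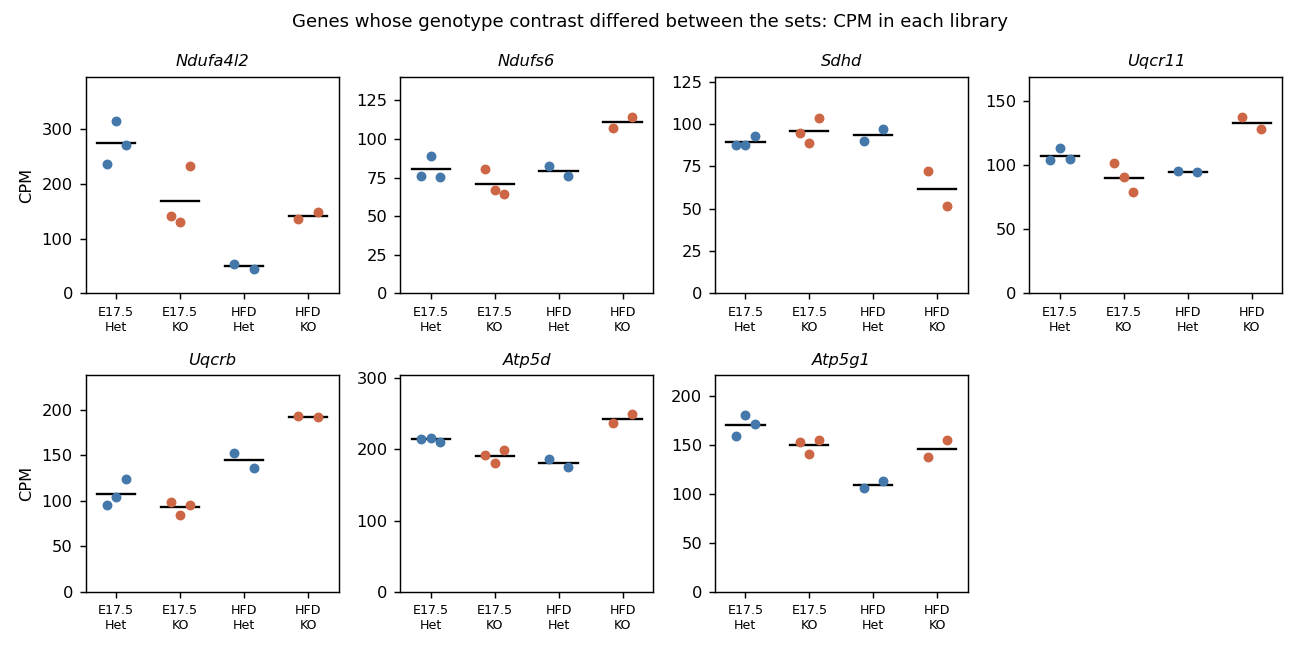
CPM in each library (points; blue Het, orange labelled KO; black line, group mean) of the 7 genes whose genotype effect differed between E17.5 and HFD at an edgeR adjusted p under 0.05. Ndufa4l2 is lower in KO at E17.5 and higher in HFD KO (136 and 148 against 53.9 and 45.2 CPM), and Sdhd alone is lower in HFD KO.

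The muscle, heart and lung isoforms of complex IV (Cox4i2, Cox6a2, Cox7a1 and Cox8b) were at or below 1.37 CPM in sorted E17.5 cells and higher in the HFD Het libraries. Cox4i2, known from lung and vascular smooth muscle, had 0 to 0.27 CPM over the 6 E17.5 libraries, 6.02 and 6.91 in HFD Het and 1.47 and 0.29 in HFD KO. Its log2 fold change in HFD was -2.90 (SE 0.75), the largest in size of any member, and the edgeR adjusted p of 0.0748 missed the threshold. DESeq2, limma-voom, the fit with no filter on low counts and the fit over all 10 libraries did call it. Those fits called 12.8, 12.3, 10.7 and 21.3% of all genes, against 5.50% in the main fit. Cox6a2, the heart and skeletal muscle isoform, had 13.0 and 3.86 CPM in HFD Het and 4.93 and 0.72 in KO, with overlapping groups. Its log2 fold change of -1.59 had a standard error of 1.09, and at E17.5 it was at -1.04 from 63 counts in Het and 29 in KO.

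Cox8b, also of heart and muscle, had 5.62 and 3.05 CPM in HFD Het and 1.61 and 4.56 in KO, and 0 in 5 of 6 E17.5 libraries, where 3 counts are worth 0.0646 to 0.087 CPM. Cox7a1 stood at 1.99 and 2.23 CPM in HFD Het and 0.82 and 2.03 in KO. At E17.5 it was at 0.15 to 0.51 in Het and 0.16 to 1.37 in KO. None of these isoforms passed edgeR's main test in either set. In HFD the fit over all 10 libraries called Cox4i2 lower (21.3% of all genes called), and the fit with a replicate block called Cox6a2 lower (9.59%). Summed skeletal muscle markers in HFD were 970 to 3369 CPM in Het and 108 to 1062 in KO, which overlap, and summed adipocyte markers (8 genes, 3 called lower of 7 tested) were 849 to 1314 CPM in Het and 184 to 312 in KO, which do not. Their part in the isoform values was not tested. Of the testis-type isoforms, Cox6b2 had 4.22 to 7.76 CPM at E17.5 and 5.65 to 10.1 in HFD, Cox8c had 1 count in all 10 libraries together and Cox7b2 none. The common partners were far higher: Cox4i1 had 264, 283 and 303 CPM in E17.5 Het and 289, 258 and 300 in KO, and 575 and 450 CPM in HFD Het against 580 and 351 in KO.

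**Figure D3:**
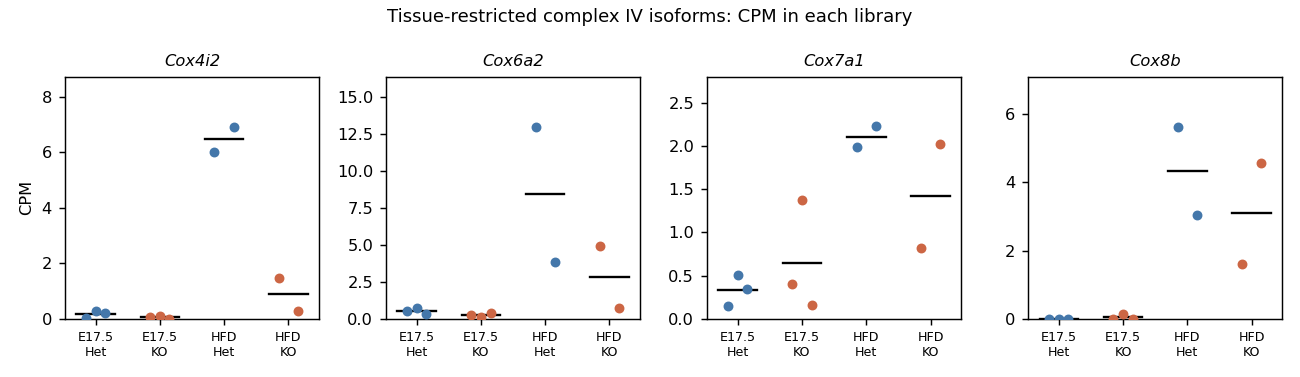
CPM in each library (points; blue Het, orange labelled KO; black line, group mean; linear axis from 0 in each panel) of 4 tissue-restricted complex IV isoforms. E17.5 libraries lie at or below 1.37 CPM, and Cox4i2 is at 6.02 and 6.91 in HFD Het against 1.47 and 0.29 in HFD KO.

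Per kilobase of exon, the level in E17.5 Het ran from 1.04 to 286 CPM per kilobase in complex I (median 60.8), from 29.8 to 69.7 in complex II (50.3), from 67.6 to 232 in complex III (131), from 0 to 366 in complex IV (101) and from 0.984 to 378 in complex V (90.8). The highest were Atp5a1, the alpha catalytic-head subunit, in complex V, Cox6a1 in complex IV and Uqcrc1, a core subunit, in complex III. In HFD Het those 3 ranked 3 of 18, 5 of 18 and 5 of 8. Exon lengths are unions over all annotated transcripts, so a gene with a long model such as Atp5g1 is understated on this scale.

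Beside these nuclear genes, the 13 mitochondrially encoded subunits had medians of the opposite sign in each set with TMM scaling, and none was called. With library totals their HFD median was -0.48 and that of the nuclear genes -0.15, the same sign. At E17.5, 12 of 13 were above 0 with a median of 0.26, and in HFD 10 of 12 tested were below 0 with a median of -0.26. Their summed level was 18385 to 29597 CPM in E17.5 Het and 26889 to 31021 in KO, and 32364 to 46407 in HFD Het and 30121 to 34754 in KO. Both pairs of ranges overlapped. mt-Nd5, a complex I subunit, had 1222, 1649 and 2011 CPM in E17.5 Het and 1989, 2619 and 1986 in KO, at 0.43 (edgeR adjusted p = 0.467). In HFD mt-Atp6, of complex V, was at -0.62 (edgeR adjusted p = 0.334) from 8.1 and 16.3 CPM in Het and 8.4 and 7.4 in KO. Those levels are a very small part of the summed level above, and the reason was not tested.

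The medians of the 17 glycolysis genes lay further from 0 than those of the subunit genes. At E17.5, 15 of 17 were below 0 (median -0.20, 0 called), and Hk1, a hexokinase, was at -0.69 (edgeR adjusted p = 0.119). In HFD, 15 of 17 were above 0 (median 0.44) and 1 was called, Aldoc, an aldolase, with 7.1 and 10.4 CPM in Het and 21.3 and 25.9 in KO (log2 fold change 1.43, edgeR adjusted p = 0.0438). The difference of effects was above 0 for 16 of 17 (median 0.65), and 5 were called, all higher: Aldoc at 2.12, Pfkl at 1.09, Eno1 at 1.09, Pgk1 at 1.08 and Pgam1 at 0.75. Of all genes tested, 7.07% were called higher in this difference.

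Of the other mitochondrial lists, no gene was called in E17.5 or HFD with each set fitted alone. Assembly factors (44 genes) had medians of 0.01 at E17.5 and -0.02 in HFD, with none called. Their difference of effects was called for 4 of 43, Acad9 and Pet100 at 0.93 and 1.08, and Uqcc2 and Atpaf2 at 0.65 and 0.60. Of all genes tested 14.7% were called in that difference, the share to set beside each list here. Tricarboxylic acid cycle genes (16) had medians of 0.01 and -0.07 with none called in either set, and Cs, citrate synthase, was called in the difference at 0.58. Mitochondrial ribosomal protein genes (76) had medians of -0.02 and 0.09 with none called in either set, and Mrps21 was called in the difference at 0.59. Regulators of mitochondrial genes (19) had medians of 0.08 and 0.10 with none called in either set, and Myc was called in the difference at 0.78. The 6 subunit or carrier genes outside the naming rule had medians of -0.03 and 0.11 and none called in any comparison.

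**Figure D4:**
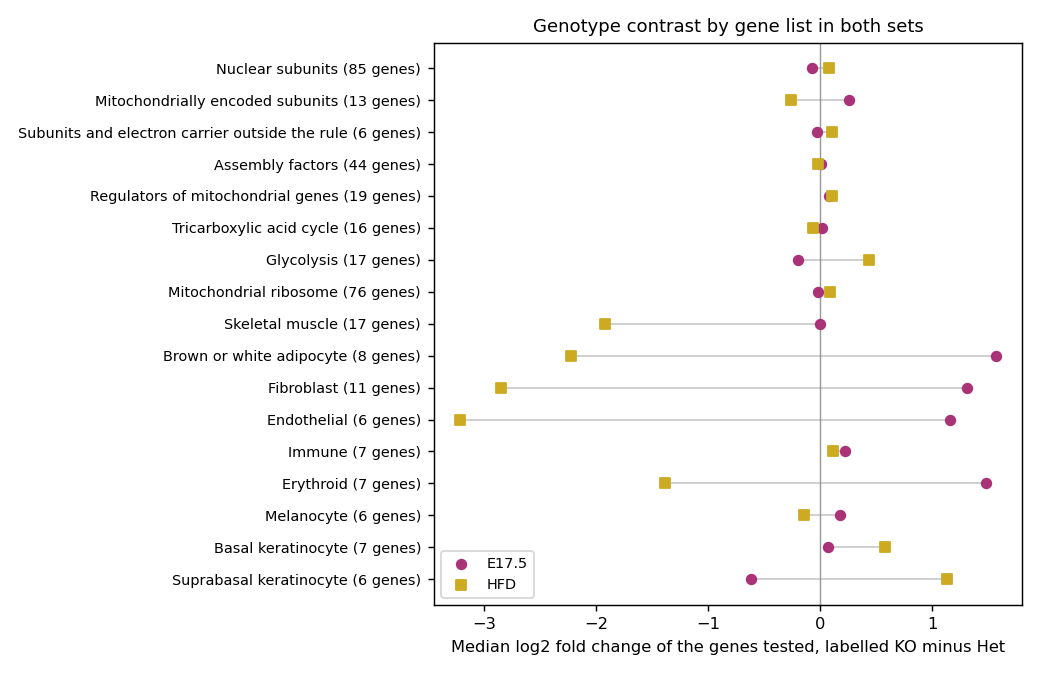
Median log2 fold change (labelled KO minus Het) of the tested genes of each list at E17.5 (purple circles) and in HFD (yellow squares). The nuclear subunit genes lie at -0.07 and 0.07, glycolysis genes at -0.20 and 0.44, and marker lists of fibroblast, endothelial and suprabasal cells lie further apart.

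KLF5 peaks were found within 1 kb of the start of 11 of the 85 genes (12.9%) in E17.5 epithelium, and active, open chromatin at most of the others. H3K27ac peaks lay within 1 kb of 70 (82.4%) and ATAC peaks of 76 (89.4%), and all 11 genes with a KLF5 peak had both. Among the 81 genes tested at E17.5 the shares were 13.6% for KLF5, 86.4% for H3K27ac and 93.8% for ATAC, against 18.9, 57.7 and 77.4% of all 15092 genes tested. The subunit genes are more highly expressed, with a median of 104 CPM in E17.5 Het against 20.4 for all genes tested, and no share was adjusted for level. With 1 sample per assay these shares have no replicate check.

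**Figure D5:**
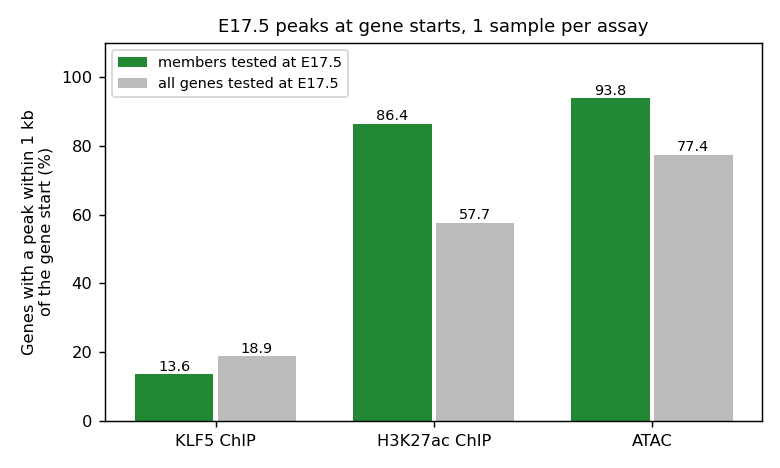
Percentage of genes with a peak within 1 kb of the gene start (bars from 0) for the 81 subunit genes tested at E17.5 (green) and all 15092 genes tested (grey), 1 sample per assay. The subunit genes are at 13.6% for KLF5, 86.4% for H3K27ac and 93.8% for ATAC.

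By complex, KLF5 peaks were at 5 of 37 genes of complex I, 0 of 4 of complex II, 1 of 8 of complex III, 1 of 18 of complex IV and 4 of 18 of complex V. Complex IV had the lowest share with an ATAC peak, 12 of 18, and 5 of its genes had none of the 3 kinds of peak: Cox4i2, Cox6a2, Cox7b2, Cox8b and Cox8c. Ndufa4l2 and Atp5g2 also had none. The nearest ATAC summit to Ndufa4l2 was 1086 bases upstream of its start, and its nearest KLF5 summit 106761 bases downstream. For Atp5g2 the RefSeq start lies 3298 bases upstream of the start in the files. A further 8 genes had an ATAC peak without H3K27ac, among them Ndufs6 and Uqcr11.

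The fold enrichment of the KLF5 peaks, the authors' value, ran from 2.57 to 5.58 over the 11 genes, with a median of 3.93, beside 4.09 for the peaks at all tested genes that had one. Ndufb5, a complex I membrane-arm subunit, had the highest (5.58, -log10 q of 11.0), with its summit 96 bases before the start (chr3:32736725-32737088), and the printed run lies inside that peak. Mrpl47 starts within 1 kb of it. Uqcrq, of complex III, followed at 5.05, Atp5f1, the peripheral-stalk b subunit of complex V, at 4.95 with its summit 722 bases past the start in the files but 114 bases before the RefSeq start, and Ndufv1, the NADH-binding subunit of complex I, at 4.92 with its summit 21 bases past the start. Those 4 were the only ones with a -log10 q of at least 5. Ndufs8 and Atp5g1 (3.93 each), Ndufv2 (3.85), Cox4i1 (3.73), Atp5b (3.61), Ndufb6 (3.38) and Atp5d (2.57) made up the rest. For Atp5d the RefSeq start lies 3643 bases downstream of the one used here. Another tested gene starts within 1 kb of Ndufb5, Atp5f1 and Cox4i1, so the peak there has no single gene.

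With peaks counted around the RefSeq start, which leaves out Atp5d, CCNCNCCC letters were in 7 of the 8 matched promoters of genes with a KLF5 peak (87.5%) and in 33 of 61 without (54.1%), beside 81.1 and 65.4% over all tested genes with and without a peak. NRF1 letters were in 0 of those 8 and in 16 of the 61 (26.2%). Over all tested genes the NRF1 shares went the other way, 12.3% with a peak and 9.42% without, and 8 promoters are few. The genotype values of the 11 genes with a KLF5 peak were like those of the rest in direction: at E17.5, 9 were below 0 (median -0.05, against -0.07 for the 70 without), and in HFD 9 were above 0 (0.05, against 0.08 for the 72 without). Over all genes tested, the medians with and without a peak were 0.001 and 0.01 at E17.5, and 0.09 and -0.04 in HFD. With each set fitted alone and all its libraries, edgeR called none of the 11 in either set. The fit over all 10 libraries called Atp5d and Atp5g1 in HFD, where it called 21.3% of all genes. Of the 11, Atp5d and Atp5g1 were among the 7 genes whose effects differed between the sets, a difference called for 14.7% of all genes. The KLF5 summit at Atp5d lies 4495 bases before its RefSeq start. The other 5 of the 7 had no KLF5 peak within 1 kb.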

How the data were processed

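RNA-seq counts per Ensembl gene were deposited by the authors for 10 libraries, made with STAR 2.6.0b and HTSeq on mm10 per the submitters' processing notes. The HFD tables also hold RPKM computed by the authors, which were not used. The mouse peak lists hold fold enrichment and -log10 p and q values deposited by the authors from MACS2, with reads aligned by Bowtie 1.0.1 or Bowtie2 2.2.3 per the submitters' processing notes. Which aligner each list used, its control and its threshold are not given in those notes. HaCaT peaks and the IgG sample were not analysed here. The E17.5 and HFD counts were fitted separately in edgeR 4.0.16 (R 4.3.3; filterByExpr, TMM, robust quasi-likelihood), and a fit over the 10 libraries gave the difference of effects; standard errors are the log2 fold change over the root of F. Adjustment was over all genes. CPM uses TMM-scaled totals; CPM per kilobase divides it by union exon length. A peak counted with at least 1 base within 1 kb of the start in the files. Scripts were tested on simulated data. Alternatives used DESeq2 1.42.0, limma 3.58.1 (voom), library totals, other filters, a replicate block, libraries left out, and other windows and starts (the RefSeq starts were added after seeing the data). The members and lists were chosen with earlier results of these data known. Named genes were, by rule, those called, the 2 largest changes and the highest level of each complex, tissue isoforms, genes with a KLF5 peak, and called genes of each list, otherwise its largest changes; Ndufa4, Sdhc, Cox4i1 levels, Atp5g2, Atp5g3 and the genes named as not overlapping or without peaks were added after their values were seen.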

Additional observations from a re-analysis of the deposited data

Results flagged for a closer look

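The KO-minus-Het effect in HFD minus that at E17.5 passed edgeR's quasi-likelihood test with Benjamini-Hochberg adjustment for 7 subunit genes. It is a test of the difference itself between the 2 sets, with a spread per gene shared by both. The log2 difference was 2.23 for Ndufa4l2, 0.74 for Uqcr11, 0.68 for Ndufs6, 0.64 for Uqcrb, 0.62 for Atp5g1, 0.61 for Atp5d and -0.69 for Sdhd. For Ndufa4l2 all 3 KO libraries at E17.5 lay below Het and both HFD KO libraries lay above Het, and the same held for Uqcr11, Atp5d and Atp5g1. The genes were picked by a test on these same libraries, so this order is no separate support. Of all genes tested, 8.18% lay wholly below Het at E17.5 and 27.4% wholly above Het in HFD. These are 7 of 83 tested, 8.43%, beside 14.7% of all 17260 genes tested, and 5 of the 7 (all but Ndufa4l2 and Sdhd) were not called under library totals. The sets differ in sorting and described library preparation, may differ in stage and diet, and these cannot be told apart.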

How the results depend on the processing

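At E17.5 the count of called subunit genes was 0 under each alternative tool, scaling, filter and fit other than DESeq2 (1) and, over libraries left out, 0 to 1. Of all genes, DESeq2 called 1.93% and the fits with libraries left out 0 to 3.31%. In HFD it was 1, with 2 under DESeq2, limma-voom, no filter on low counts and the replicate block, 10 (8 higher, 2 lower) with all 10 libraries in one fit, and 0 to 7 over libraries left out. Shares of all genes called were 12.8%, 12.3%, 10.7% and 9.59% for those with 2, 21.3% for the 10-library fit (members 12.0%) and 0.115 to 32.2% over libraries left out. The difference of effects was called for 7 genes, for 12 under DESeq2, 4 under library totals and 2 to 5 over E17.5 libraries left out. The shares of all genes called were 14.7%, 14.1%, 17.6% and 7.92 to 13.7%. For the members they were 8.43%, 14.3%, 4.82% and 2.41 to 6.02%. Leaving out an HFD library leaves 1 in its group, so only effect sizes are given for those fits. The members' median difference was then 0.064 (without HFD KO replicate 1) to 0.28 (without HFD KO replicate 2), beside 0.18 with all libraries. The HFD median was -0.15 under library totals and 0.023 to 0.22 over libraries left out. Genes with a KLF5 peak fell from 11 to 4 at a -log10 q of at least 5. The cause of these shifts was not tested. Signs of uncalled low or small values turned for Cox6b2 in HFD (-0.21 under library totals, -0.035 under the replicate block). They also turned over libraries left out, with ranges of -0.44 to 0.39 for Cox6b2 and -1.40 to 0.092 for Cox8b in HFD (0.027 without Het replicate 1). The E17.5 ranges were -0.048 to 0.37 for Cox6b2, -0.24 to 1.43 for Cox7a1, -0.088 to 0.66 for Atp5l2 and -0.0037 to 0.13 for Sdha. Deviations of same-numbered Het and KO libraries correlated at 0.026, -0.10 and 0.18 at E17.5, beside -0.20 to 0.20 for differently numbered ones. In HFD the 2 pairs give a single value of 0.18, mirrored at -0.18 between numbers. These few values cannot show whether the numbers pair libraries. With a replicate block 0, 2 and 10 genes were called in the 3 comparisons, where 0.278%, 9.59% and 14.7% of all genes were. In HFD the second was Cox6a2, lower, at -1.87. Depth limits Cox7b2, Cox8b and Cox8c at E17.5, where 3 counts are worth up to 0.087 CPM.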
